A study of Homo sapiens with 12 samples.

Results

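Wild type OCM1 cells were compared with wild type MUM2B cells across all genes. Both are labelled as human uveal melanoma cell lines. The comparison rests on the 6 wild type arrays, 3 of each line, out of 12 arrays in the series. The other 6 arrays hold the same lines overexpressing the long noncoding RNA CANT1, again 3 of each line, and served as a separate look at the line difference. Total RNA was labelled with biotin and hybridised to Affymetrix expression arrays. Replicate 1 of each group was deposited with one growth note, which says that the CANT1 cells had been selected with puromycin. Replicates 2 and 3 carry another, which gives DMEM with 10% FBS. The controls are wild type cells and not cells with an empty vector, and the labels do not say whether the replicates were separate cultures. The p-values therefore measure the spread between these arrays, which may be technical, and the small number of arrays limits the precision.

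Melanocytes and the tumours that arise from them run a pigment programme in which the transcription factors MITF, SOX10 and PAX3 drive the enzymes and structural proteins of the melanosome, the organelle in which melanin is made. Melanoma cells can also lie in an undifferentiated state, in which this programme is low and AXL, EGFR and genes of matrix, adhesion and inflammation are high. MUM2B has been used as an invasive line in work on vasculogenic mimicry, in which tumour cells express genes usually found in blood vessels.

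All differences below are OCM1 minus MUM2B on the scale log2(signal + 32), given with the standard error (SE) of the fit, and folds are taken from this scale, which understates the fold of a dim gene. A level is the log2 value of the brightest probe set of a gene on 1 array, and levels of different genes were not compared. The labelled set (replicate 1 against replicates 2 and 3) was a term of the fit. The OCM1 wild type replicate 1 array stood apart. Its mean correlation was 0.810 with the other wild type OCM1 arrays and 0.771 with the wild type MUM2B arrays, while the other 5 wild type arrays correlated at 0.901 to 0.961 with the wild type arrays of their own line. Over all arrays of its line its mean correlation was 0.822, against 0.935 to 0.976 for the other 11 arrays. Of 491 genes at least 4-fold higher in OCM1 without this array, it lay nearer to the other OCM1 arrays for 269 (54.8%). It was at least 4-fold above all other 11 arrays for 49 genes and at least 4-fold below them for 56. Replicate 1 arrays of all groups also had a larger signal from the 3′ than the 5′ probe set of ACTB, by 2.15 to 2.51 on the log2 scale against 0.47 to 0.91 for the other arrays, and the part of this in the results was not tested. Counts of each gene list are therefore given with all 6 arrays and then without OCM1 replicate 1, in which case the difference rests on replicates 2 and 3. With the set term, leaving out MUM2B replicate 1 instead gives the same difference, so the 2 are not separate checks. For single genes the second value is given for the main examples. Where it is not, a gene called with all arrays was still called in the same direction without that array.

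The labelled origin of the cells was checked with markers. The summed signal of 6 melanocytic markers (MITF, SOX10, PMEL, MLANA, TYR and S100B) was 13250, 63790 and 61380 on OCM1 replicates 1, 2 and 3, against 688, 547 and 498 on the MUM2B arrays. In MUM2B, SOX10, MLANA and S100B stayed under a signal of 100 on all 3 arrays, the floor used here, and PMEL, TYR and MITF lay at 111 to 159, so the defining markers of the labelled lineage were at or near background in that line. Markers of immune cells (PTPRC, CD3D and CD14) were at most 43.7 in both lines, and CD79A lay at 151 to 211 in both. The fibroblast markers PDGFRA, DCN and DPT were at most 47.9 in both, whereas LUM spanned 62.2 to 1383 in OCM1 and stayed under 100 in MUM2B. The epithelial markers EPCAM, CDH1 and GRHL2 were at most 84.3 in both lines.

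With all 6 arrays, limma called 3179 of 11921 genes at an adjusted p of 0.05. Of the genes tested, 1821 (15.3%) were higher in OCM1 and 1358 (11.4%) were higher in MUM2B, and 993 and 798 of these differed at least 2-fold. At least 16-fold differences were found for 47 genes higher in OCM1 and 94 higher in MUM2B. The 3 arrays of one line lay wholly above the 3 of the other for 2302 genes (19.3%) higher in OCM1 and for 1690 (14.2%) higher in MUM2B. Without OCM1 replicate 1, 4119 of the same genes (34.6%) were called higher in OCM1 and 3597 (30.2%) higher in MUM2B. With the brightness filter applied to those 5 arrays alone, the counts were 3838 (33.5%) and 3562 (31.1%) of 11459 genes. All 1821 (15.3%) and 1358 (11.4%) genes called on 6 arrays were also called, in the same direction, without that array. Each list count below is to be read beside these shares of all genes. They are 15.3% and 11.4% with 6 arrays, and 34.6% and 30.2% without OCM1 replicate 1. The list counts cover tested genes only. A gene under a signal of 100 on all arrays of 1 line was tested only if bright on all 3 of the other. Such a gene thus entered through the line where it is high. With the replicate number as a block the 6-array calls were 824 and 690, all of them among the calls above. The counts turned on single arrays: leaving out MUM2B replicate 1 gave 4090 and 3409 calls, MUM2B replicate 2 gave 547 and 387, MUM2B replicate 3 gave 536 and 340, OCM1 replicate 2 gave 402 and 510 and OCM1 replicate 3 gave 416 and 533.

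**Figure D1:**
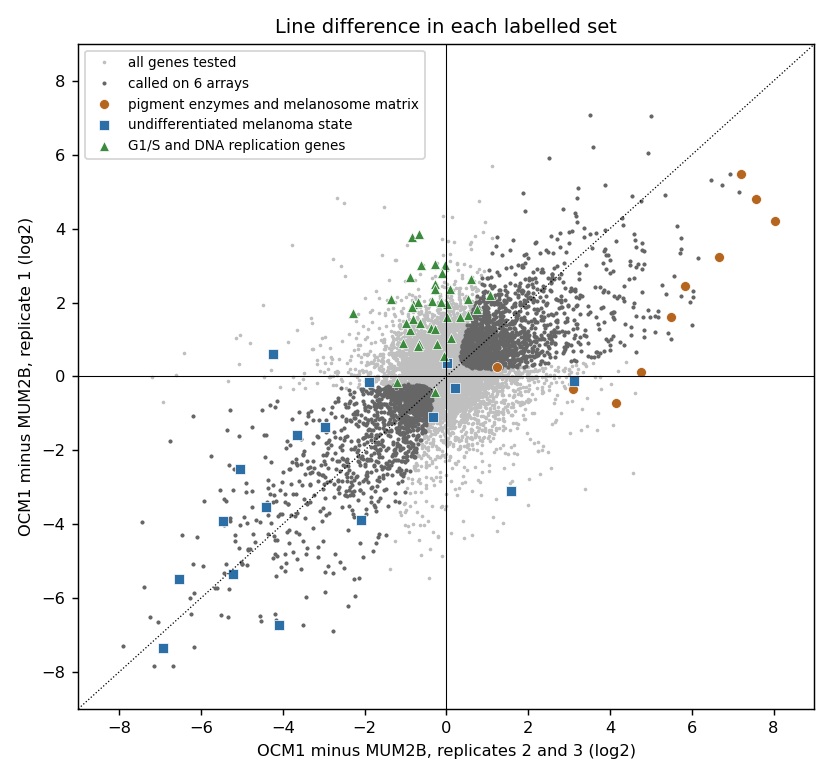
Each point is 1 of 11921 genes, with the OCM1 minus MUM2B difference (log2) of replicates 2 and 3 on the x axis and that of replicate 1 on the y axis, and coloured points mark the pigment, undifferentiated state and G1/S lists. All 10 pigment genes lie to the right (median 5.66), with a replicate 1 median of 2.02 and GPNMB below 0 there. Most undifferentiated-state genes lie to the left (median -3.65), with a replicate 1 median of -2.50. G1/S genes have a median of 1.89 in replicate 1 and -0.29 in replicates 2 and 3. Across genes the 2 differences correlated at 0.533.

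The genes of melanin synthesis and the melanosome matrix were higher in OCM1. Of 10 tested members, 6 (60.0%) passed with all 6 arrays and all 10 passed without OCM1 replicate 1, none in the other direction, against 15.3% and 34.6% of all genes. The median difference of the list was 4.45, and 5.66 without that array, beside 0.05 and 0.06 for all genes. PMEL, which forms the fibrils on which melanin is laid down, read 12.99, 14.52 and 14.36 on OCM1 replicates 1, 2 and 3 and 7.52, 7.25 and 7.22 on MUM2B. The lines did not overlap, and the difference was 6.63 ± 0.38 (98.8-fold, adjusted p = 0.000772) with all arrays and 7.20 ± 0.10 without OCM1 replicate 1. TYR, the enzyme tyrosinase that starts melanin synthesis, read 10.73, 13.84 and 13.92 in OCM1 and 7.49, 7.16 and 7.26 in MUM2B. TYRP1, a related enzyme of the same pathway, read 9.90, 13.73 and 13.78 in OCM1 and 5.70, 5.69 and 5.75 in MUM2B. In both enzymes OCM1 replicate 1 lay about 3 to 4 units below its 2 companions and still above every MUM2B array. The difference was 5.52 ± 0.73 (46.0-fold, adjusted p = 0.00703) for TYR and 6.76 ± 0.81 (108-fold, adjusted p = 0.00546) for TYRP1, and 6.67 ± 0.10 and 8.04 ± 0.10 without that array. MLANA, a melanosome protein and melanoma antigen, differed by 6.65 ± 0.60 (100-fold, adjusted p = 0.00246), and by 7.57 ± 0.12 without that array.

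CAPN3, a calpain protease present in melanocytic cells, differed by 4.71 ± 0.73 (adjusted p = 0.011) and GPR143, the ocular albinism receptor of the melanosome membrane, by 4.19 ± 0.82 (adjusted p = 0.0216). Leaving out OCM1 replicate 1 gave 5.84 ± 0.13 and 5.48 ± 0.10. The call of TYR was lost without MUM2B replicate 3 (adjusted p = 0.0561), and those of CAPN3 and GPR143 without any 1 of the 4 arrays of replicates 2 and 3 (adjusted p up to 0.069 and 0.108). With the replicate block GPR143 had an adjusted p of 0.0694. The other 4 members did not pass with all arrays. SLC45A2, a melanosome transporter, read 7.40 on OCM1 replicate 1 against 11.30 and 11.34 on the other OCM1 arrays and 7.27, 6.62 and 6.50 in MUM2B, so that the replicate 1 arrays of the lines were nearly level (3.22 ± 0.98, adjusted p = 0.0695). GPNMB, a glycoprotein related to PMEL, read 9.47, 13.65 and 13.68 in OCM1 and 10.20, 9.44 and 9.57 in MUM2B, and its lines overlapped through OCM1 replicate 1 (2.53 ± 1.03, adjusted p = 0.139). SLC24A5, an ion exchanger of the melanosome, gave 1.95 ± 0.76 (adjusted p = 0.123) and TSPAN10, a tetraspanin, 0.90 ± 0.27 (adjusted p = 0.064). Leaving out either replicate 1 array raised GPNMB to 4.16 ± 0.10 and SLC24A5 to 3.10 ± 0.19, and SLC45A2 and TSPAN10 were 4.76 ± 0.10 and 1.23 ± 0.15 without OCM1 replicate 1.

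**Figure D2:**
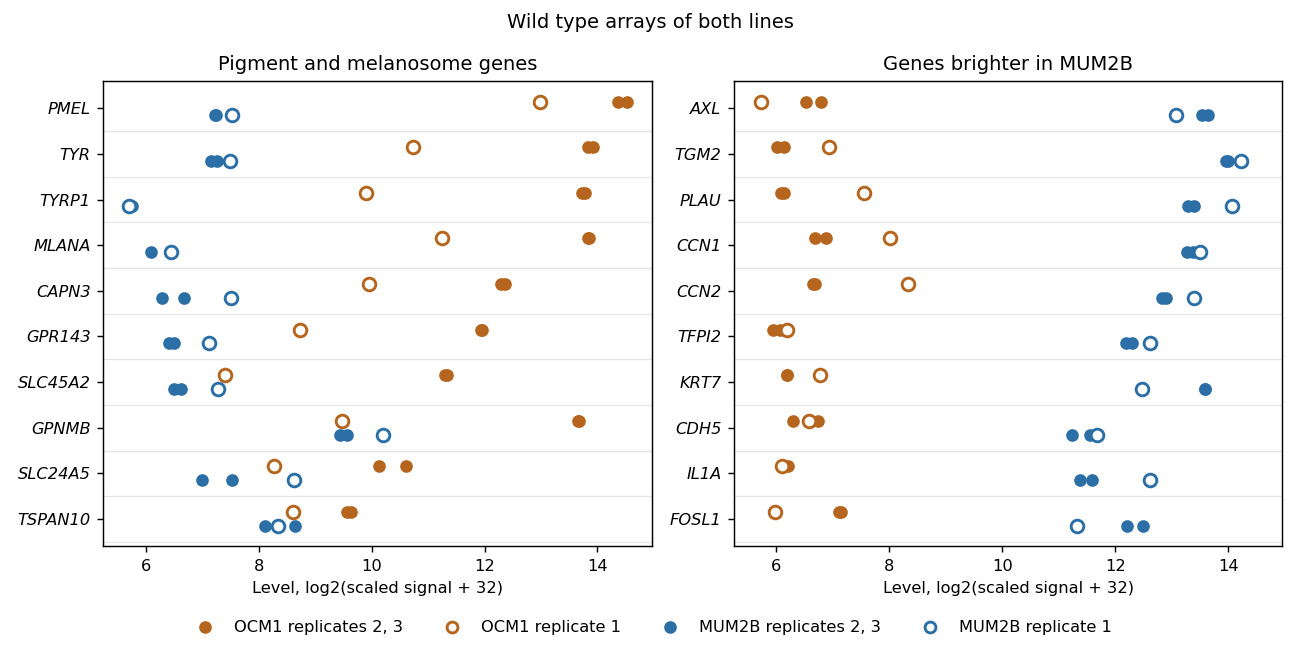
Levels (log2 of signal + 32, x axis) of 10 pigment genes and 10 genes brighter in MUM2B on the 6 wild type arrays, 1 point per array with open circles for replicate 1. OCM1 replicate 1 lies below the other OCM1 arrays in the pigment genes, as for TYR at 10.73 against 13.84 and 13.92, while AXL, TGM2 and TFPI2 separate the lines by about 6 to 8 units on every array.

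The promoters of 4 pigment genes are shown because they hold the M-box core, the element TCATGTG bound by MITF. The stretches lie before the start of each gene, are taken from RefSeq on GRCh38.p14, are written 5′ to 3′ on the gene's strand, and have the element or its reverse complement CACATGA in capitals. TYR lies at chr11:89177725-89177874 on the plus strand, TYRP1 at chr9:12693235-12693384 on the plus strand, GPR143 at chrX:9765848-9765947 on the minus strand and GPNMB at chr7:23246625-23246774 on the plus strand.
TYR: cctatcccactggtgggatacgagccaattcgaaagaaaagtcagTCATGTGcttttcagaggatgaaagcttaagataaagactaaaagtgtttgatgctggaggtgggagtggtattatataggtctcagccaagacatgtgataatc
TYRP1: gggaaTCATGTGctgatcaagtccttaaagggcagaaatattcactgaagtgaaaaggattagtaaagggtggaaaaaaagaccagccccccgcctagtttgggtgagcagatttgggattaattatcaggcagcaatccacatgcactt
GPR143: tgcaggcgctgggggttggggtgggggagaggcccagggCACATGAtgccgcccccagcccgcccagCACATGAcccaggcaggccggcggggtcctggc
GPNMB: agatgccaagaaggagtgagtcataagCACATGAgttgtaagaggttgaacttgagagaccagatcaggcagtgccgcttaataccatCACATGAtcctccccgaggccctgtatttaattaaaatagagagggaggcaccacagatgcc
The match begins 105 bases before the start in TYR and 145 in TYRP1, and GPR143 and GPNMB each hold 2. SLC24A5 and TSPAN10 also held a match. A promoter was available for 9778 of the 11921 genes tested. Searched on both strands, TCATGTG was present in 1.73% of these and in 2.99% of all 27305 promoters of the table. It was in 3.79% (10 of 264) of the promoters of genes called at least 4-fold higher in OCM1. The share was 2.58% for genes called at least 4-fold higher in MUM2B. Over all genes called, whatever the size, it was in 1.555% (24 of 1543) of those higher in OCM1. For all genes called higher in MUM2B it was 1.874% (20 of 1067). The related element TCACGTG was in 6.44% and 3.32% of the promoters at least 4-fold higher in OCM1 and MUM2B. It was in 5.80% of those tested and 3.82% of the whole table. The SOX element ACAAAG was in 14% and 12.9% of the same 4-fold sets, beside 10.3% of those tested. It was in 16% of the whole table, so that both sets lay below the table. Over all genes called higher in OCM1 and in MUM2B the share was 10.3% and 10.7%. A match is a description of these letters and not a bound site.

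Genes that move and mature melanosomes differed less. Of 16 tested members, 6 (37.5%) were higher in OCM1 with all arrays and none in MUM2B, against 15.3% and 11.4% of all genes. The list median was 0.62. Leaving out OCM1 replicate 1, 13 were higher in OCM1 and 3 in MUM2B, against 34.6% and 30.2% of all genes. LYST, the lysosomal trafficking regulator, read 9.70, 11.11 and 11.40 in OCM1 and 8.86, 6.80 and 7.01 in MUM2B. The groups did not overlap, but the replicate 1 arrays were less than 1 unit apart, and the difference was 3.18 ± 0.75 (adjusted p = 0.0359) with all arrays and 4.35 ± 0.12 without OCM1 replicate 1. MYO5A, the myosin that carries melanosomes along actin, differed by 2.16 ± 0.57 (adjusted p = 0.0473) and by 3.04 ± 0.11 without that array. HPS4, HPS5, HPS1 and DTNBP1, members of complexes that sort cargo to lysosome-related organelles, differed by 1.38, 1.03, 1.02 and 0.62. All 6 calls were lost without any 1 of the 4 arrays of replicates 2 and 3 (adjusted p up to 0.185, for MYO5A) and with the replicate block (adjusted p of 0.062 to 0.117). Of 4 probe sets for HPS1, 3 had the direction given and 1 had a difference of -0.11.

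The regulators of the melanocyte lineage followed the pigment genes. Of 12 tested, 9 (75.0%) were higher in OCM1 with all arrays and 12 without OCM1 replicate 1, with list medians of 3.48 and 4.08 and none higher in MUM2B. MITF, the master regulator of the lineage, read 8.69, 11.98 and 11.89 in OCM1 and 7.58, 7.54 and 7.29 in MUM2B. The lines did not overlap, and replicates 2 and 3 of OCM1 stood over 3 units above replicate 1. The difference was 3.39 ± 0.73 (10.5-fold, adjusted p = 0.0276) with all arrays and 4.52 ± 0.11 without OCM1 replicate 1. SOX10, the neural crest factor that acts upstream of MITF, read 7.07, 9.68 and 9.51 against 6.75, 6.19 and 6.23, and did not pass with all arrays (2.36 ± 0.65, adjusted p = 0.0543) but did without OCM1 replicate 1 (3.38 ± 0.10). PAX3, which acts with SOX10, read 9.16, 10.28 and 9.96 in OCM1 and 6.10, 6.54 and 6.03 in MUM2B, with all 3 OCM1 arrays close together (3.58 ± 0.25, 11.9-fold, adjusted p = 0.00116). TFAP2A, another factor of neural crest and melanocytes, was likewise even across OCM1 at 10.92, 11.12 and 11.20 against 7.89, 6.57 and 6.75 in MUM2B (4.01 ± 0.33, adjusted p = 0.00188). The values without OCM1 replicate 1 were 3.84 ± 0.16 for PAX3 and 4.50 ± 0.10 for TFAP2A.

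ERBB3, the neuregulin receptor, differed by 4.64 ± 0.83, and S100B, a calcium-binding protein used as a melanoma marker, by 4.79 ± 0.79. IRF4, a pigmentation-linked factor, differed by 3.64 ± 0.76, SOX6 by 3.70 ± 0.42, LEF1, a Wnt effector, by 2.56 ± 0.20 and ALX1, a homeobox factor of neural crest, by 1.75 ± 0.19. The adjusted p-values of these 6 genes lay between 0.00164 and 0.0257. ERBB3 differed by 5.95 ± 0.10, S100B by 6.03 ± 0.10 and IRF4 by 4.82 ± 0.12 without OCM1 replicate 1. MC1R, the melanocortin receptor, and S100A1 did not pass with all arrays, at 1.56 ± 0.51 and 1.2 ± 0.48. Without either replicate 1 array they were 2.35 ± 0.11 and 1.94 ± 0.10. The calls of IRF4, ERBB3 and S100B were lost without MUM2B replicate 2 or 3 (adjusted p up to 0.121, 0.0957 and 0.0804), and that of MITF without any 1 of the 4 arrays of replicates 2 and 3 (adjusted p up to 0.125). With the replicate block MITF, IRF4 and ERBB3 had adjusted p-values of 0.0814, 0.0787 and 0.0587.

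The other genes with the greatest excess in OCM1 were of several kinds. QPCT, the glutaminyl cyclase that modifies peptide ends, read 11.34, 12.63 and 12.35 in OCM1 and 5.85, 5.53 and 5.55 in MUM2B. PRAME, a cancer-testis antigen used as a marker of risk in uveal melanoma, read 10.52, 12.94 and 12.62 against 5.54, 5.66 and 5.59. EPHA3, an ephrin receptor, read 10.75, 12.37 and 12.19 against 5.57, 5.59 and 5.48. In these 3 genes MUM2B was under a signal of 100 on all arrays and the OCM1 arrays were bright, with replicate 1 the lowest of them. The differences were 6.46 ± 0.33 (88.1-fold, adjusted p = 0.000587), 6.43 ± 0.48 (86.2-fold, adjusted p = 0.00141) and 6.22 ± 0.35 (74.6-fold, adjusted p = 0.000689). Leaving out OCM1 replicate 1 gave 6.95 ± 0.11, 7.15 ± 0.12 and 6.74 ± 0.11. CRNDE, a long noncoding RNA, and ID4, an inhibitor of basic helix-loop-helix factors, were highest on OCM1 replicate 1, at 12.71 against 10.68 and 10.64 for CRNDE and at 11.85 against 10.51 and 10.64 for ID4. They differed by 5.69 ± 0.45 and 5.30 ± 0.26, and ID4 by 4.92 ± 0.10 without that array. NUPR1, a stress-induced nuclear protein, differed by 5.08 ± 0.44, EPB41L3, which links membrane proteins to the cytoskeleton, by 5.12 ± 0.35, and HMCN1, an extracellular matrix protein, by 4.98 ± 0.50.

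CDKN2A, which encodes the cell cycle inhibitors p16 and p14ARF, separated the lines as strongly as the pigment genes. Its levels were 11.82, 13.20 and 12.98 in OCM1 and 6.50, 6.35 and 6.86 in MUM2B. Its neighbours on chromosome 9 went the same way: CDKN2B, a related inhibitor, read 7.58, 8.27 and 7.86 against 5.54, 5.72 and 5.71. MTAP, a methionine salvage enzyme, read 8.31, 9.21 and 9.43 against 6.11, 5.93 and 6.19. None of the 3 overlapped between the lines. The differences were 6.09 ± 0.30 (adjusted p = 0.000532), 2.25 ± 0.16 (adjusted p = 0.00126) and 2.91 ± 0.26 (adjusted p = 0.00238), and 6.48 ± 0.16, 2.35 ± 0.13 and 3.26 ± 0.12 without OCM1 replicate 1. Of 18 tested cell cycle inhibitors and D cyclins, 6 (33.3%) were higher in OCM1 and 1 in MUM2B, and 10 and 4 without OCM1 replicate 1. The call in MUM2B with all arrays was CCND1, cyclin D1, at 9.25, 9.45 and 9.45 in OCM1 and 12.31, 12.48 and 12.43 in MUM2B (-3.02 ± 0.10, 8.14-fold higher in MUM2B, adjusted p = 0.000226). MYC, the growth-promoting transcription factor, was higher in OCM1 by 0.97 ± 0.12 (adjusted p = 0.00561), a call lost without OCM1 replicate 2 (adjusted p = 0.0527). CDKN1A, which encodes p21, was higher by 1.19 ± 0.28 with all arrays (adjusted p = 0.0369), and lost its call without any 1 of the 4 arrays of replicates 2 and 3 (adjusted p up to 0.128) and with the block (0.102). Without either replicate 1 array its value was 0.79.

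Genes of neurons and their adhesion, which neural crest derivatives can express, were also more often higher in OCM1, with 8 of 19 tested (42.1%) and none in MUM2B, against 15.3% and 11.4% of all genes, and a median of 0.98. Leaving out OCM1 replicate 1 gave 10 in OCM1 and 2 in MUM2B, against 34.6% and 30.2% of all genes. The CANT1 arrays gave 11 in OCM1 and 4 in MUM2B, beside 3842 and 3163 of all 11921 genes. CHL1, an adhesion molecule of the L1 family, read 8.82, 11.85 and 11.69 in OCM1 and 5.61, 5.6 and 5.64 in MUM2B (5.17 ± 0.63, adjusted p = 0.00558). GPM6B, a membrane glycoprotein of the nervous system, differed by 4.93 ± 0.52 (adjusted p = 0.0037). NEFL, the light neurofilament chain, was even across sets at 9.86, 9.59 and 9.83 against 5.98, 5.97 and 6.13 (3.73 ± 0.13, adjusted p = 0.000262). NRN1, neuritin, which promotes neurite growth, read 11.27, 11.71 and 11.82 against 6.37, 6.66 and 6.17 (5.20 ± 0.19, adjusted p = 0.000279). These 4 genes differed by 6.15 ± 0.10, 5.72 ± 0.12, 3.66 ± 0.11 and 5.35 ± 0.15 without OCM1 replicate 1. L1CAM differed by 3.39 ± 0.63 (adjusted p = 0.0187), a call lost without any 1 of the 4 arrays of replicates 2 and 3 (adjusted p up to 0.101) and with the block (0.0635). Among 31 axon guidance genes both directions were found, with 7 (22.6%) higher in OCM1 and 6 (19.4%) in MUM2B. Without OCM1 replicate 1 the counts were 17 and 12, against 34.6% and 30.2% of all genes. SEMA6A, a semaphorin, was higher in OCM1 by 4.30 ± 0.26. NRP1, a semaphorin and VEGF co-receptor, was higher in MUM2B, at -4.29 ± 0.57, a call lost without MUM2B replicate 2 or 3 (adjusted p up to 0.0561).

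Genes of the undifferentiated melanoma state were higher in MUM2B. Of 17 tested, 10 (58.8%) passed with all arrays, against 11.4% of all genes, and none was higher in OCM1. The median was -2.69. Without OCM1 replicate 1, 13 were higher in MUM2B and 2 in OCM1, with a median of -3.65. AXL, the receptor tyrosine kinase that marks this state, read 5.72, 6.52 and 6.78 in OCM1 and 13.07, 13.63 and 13.54 in MUM2B. Its lines stood about 7 units apart in both sets (-7.07 ± 0.15, 135-fold higher in MUM2B, adjusted p = 0.000138), and OCM1 was under a signal of 100 on all 3 arrays. FOSL1, an AP-1 subunit induced by ERK signalling, read 5.98, 7.15 and 7.12 against 11.33, 12.49 and 12.21 (-5.26 ± 0.13, adjusted p = 0.000145). NT5E, an ectoenzyme that makes adenosine, differed by -4.98 ± 0.57, and AMIGO2, an adhesion molecule, by -4.96 ± 0.34. SOX9, which counters SOX10 in melanoma cells, read 7.85, 5.72 and 5.78 in OCM1 and 10.35, 10.57 and 11.01 in MUM2B (-4.20 ± 0.56, adjusted p = 0.00704), and its call was lost without MUM2B replicate 2 (adjusted p = 0.0513). The values without OCM1 replicate 1 were -6.93 ± 0.11 for AXL and -5.05 ± 0.14 for SOX9.

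Receptor tyrosine kinases were called in both directions. With all arrays 8 of 30 (26.7%) were higher in OCM1 and 7 (23.3%) in MUM2B, against 15.3% and 11.4% of all genes. Without OCM1 replicate 1 the counts were 11 and 10, near the 34.6% and 30.2% of all genes. Besides AXL, MUM2B had more EGFR, the epidermal growth factor receptor, at 11.12, 11.34 and 11.20 against 7.58, 7.02 and 6.70 in OCM1 (-4.12 ± 0.23, adjusted p = 0.000664). EPHA2, an ephrin receptor, differed by -3.74 ± 0.26 and TIE1, a receptor of endothelial cells, by -3.92 ± 0.30. MET, the hepatocyte growth factor receptor, differed by -2.30 ± 0.46 (adjusted p = 0.023). OCM1 had more EPHA3 and ERBB3, as above, and more INSR, the insulin receptor, at 9.39, 8.86 and 8.83 against 6.31, 6.05 and 5.92 (2.93 ± 0.11, adjusted p = 0.00033). Leaving out OCM1 replicate 1 gave -4.41 ± 0.12 for EGFR and 2.86 ± 0.10 for INSR. IGF1R, the related receptor of insulin-like growth factors, differed by 2.14 ± 0.34 (adjusted p = 0.0121). The calls of MET and IGF1R were lost without any 1 of the 4 arrays of replicates 2 and 3 (adjusted p up to 0.112 and 0.0802), and MET also with the block (0.0718). Of 29 output genes of the ERK pathway, 2 (6.9%) were higher in OCM1 and 5 (17.2%) in MUM2B, against 15.3% and 11.4% of all genes. Among those higher in MUM2B were FOSL1, CCND1 and the phosphatase DUSP1 (-3.19 ± 0.20). The list gave 11 in OCM1 and 9 in MUM2B without OCM1 replicate 1, near the 34.6% and 30.2% of all genes.

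The genes with the greatest excess in MUM2B were of several kinds. TGM2, the transglutaminase that crosslinks matrix proteins, read 14.23, 13.99 and 13.95 in MUM2B and 6.94, 6.12 and 6.01 in OCM1 (-7.70 ± 0.16, 208-fold, adjusted p = 0.000138). IL13RA2, a decoy receptor for interleukin 13, read 13.74, 12.98 and 12.98 against 5.89, 5.98 and 5.70 (-7.38 ± 0.19, 166-fold). PLAU, the urokinase that activates plasmin, read 14.07, 13.30 and 13.40 against 7.54, 6.07 and 6.13 (-7.00 ± 0.18). In each of these genes all MUM2B arrays were more than 5 units above all OCM1 arrays. PLAUR, the urokinase receptor, was higher in MUM2B too (-2.89 ± 0.13, 7.42-fold). Over the list of matrix proteases and their inhibitors, 7 of 24 (29.2%) were higher in MUM2B and 1 in OCM1 with all arrays, but 7 in MUM2B and 12 in OCM1 without OCM1 replicate 1. TM4SF1, a membrane protein of the tetraspanin kind, differed by -7.07 ± 0.26, CLDN1, a tight junction protein, by -6.56 ± 0.27 and TFPI2, an inhibitor of matrix-degrading serine proteases, by -6.31 ± 0.11. G0S2, an inhibitor of fat breakdown, read 10.52, 6.16 and 5.73 in OCM1 and 14.46, 13.42 and 13.38 in MUM2B (-6.28 ± 0.75, adjusted p = 0.00542), so OCM1 replicate 1 was more than 4 units above its companions. C19orf33 and RGCC, a regulator of the cell cycle, differed by -6.17 ± 0.15 and -6.16 ± 0.33. Without OCM1 replicate 1 the values were -7.90 ± 0.10 for TGM2, -7.15 ± 0.11 for IL13RA2, -7.25 ± 0.10 for PLAU and -7.46 ± 0.14 for G0S2.

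Matrix glycoproteins and crosslinkers were higher in MUM2B in 11 of 24 cases (45.8%), with none higher in OCM1 and a median of -1.51. The counts were 15 and 7 without OCM1 replicate 1. TGFBI, a matrix protein induced by TGF-beta, read 10.57, 11.65 and 12.03 in MUM2B and 6.66, 6.82 and 6.29 in OCM1 (-4.83 ± 0.35, adjusted p = 0.00133). FN1, fibronectin, read 13.64, 11.49 and 12.13 against 9.99, 10.28 and 9.92 (-2.36 ± 0.46, adjusted p = 0.0215), and THBS1, thrombospondin 1, 10.37, 11.41 and 11.49 against 5.86, 9.49 and 9.18 (-2.91 ± 0.52, adjusted p = 0.0164). Leaving out OCM1 replicate 1 gave -5.29 ± 0.17 for TGFBI, -1.71 ± 0.19 for FN1 and -2.12 ± 0.12 for THBS1. The lines overlapped in neither, although replicate 1 gave the wider gap in both. The call of FN1 was lost without MUM2B replicate 3, OCM1 replicate 2 or OCM1 replicate 3 (adjusted p up to 0.106), that of THBS1 without any 1 of the 4 arrays of replicates 2 and 3 (0.0751), and both with the block (0.0689 and 0.0576). Of collagen chains, 1 of 21 was higher in OCM1 and 4 (19.1%) in MUM2B with all arrays, and 7 in each without OCM1 replicate 1. COL12A1 was higher in MUM2B (-4.76 ± 0.11) and COL9A3 in OCM1 (4.61 ± 0.61, a call lost without MUM2B replicate 3, adjusted p = 0.0551). The laminin chain LAMB3 differed by -5.83 ± 0.24. Of integrin chains, 2 of 17 (11.8%) were higher in OCM1 and 3 (17.6%) in MUM2B, against 15.3% and 11.4% of all genes. Without OCM1 replicate 1 the counts were 6 and 5, near the 34.6% and 30.2% of all genes. ITGA3, part of a laminin receptor, was higher in MUM2B (-3.58 ± 0.13) and ITGA4 in OCM1 (3.60 ± 0.48, a call lost without MUM2B replicate 2 or 3, adjusted p up to 0.0566).

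Target genes of YAP and TEAD, which respond to cell shape and density, were higher in MUM2B in 13 of 24 cases (54.2%) and in OCM1 in 1, with a median of -1.09. Of the same genes, 15 and 5 were called without OCM1 replicate 1. CCN1 and CCN2, secreted matricellular proteins and standard targets, were both among the most different genes. CCN1 read 13.50, 13.38 and 13.28 in MUM2B and 8.0, 6.69 and 6.88 in OCM1 (-6.2 ± 0.25, 73.3-fold, adjusted p = 0.000335). CCN2 read 13.40, 12.91 and 12.84 against 8.32, 6.65 and 6.68 (-5.83 ± 0.26, 56.9-fold, adjusted p = 0.000399). OCM1 replicate 1 was the highest OCM1 array for both and still over 5 units below its MUM2B partner, and without it the differences were -6.55 ± 0.11 and -6.21 ± 0.10. AMOTL2, a scaffold that feeds back on YAP, differed by -3.85 ± 0.34, and F3, tissue factor, the starter of blood clotting, by -3.50 ± 0.32.

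Promoters of 3 genes higher in MUM2B are shown, from RefSeq on GRCh38.p14 and on the minus strand in each case, because they hold the TEAD element GGAATG (CCN2) or the AP-1 element TGANTCA (TFPI2 and F3), in capitals. CCN2 lies at chr6:131951373-131951552, TFPI2 at chr7:93890754-93890873 and F3 at chr1:94541760-94541999.
CCN2: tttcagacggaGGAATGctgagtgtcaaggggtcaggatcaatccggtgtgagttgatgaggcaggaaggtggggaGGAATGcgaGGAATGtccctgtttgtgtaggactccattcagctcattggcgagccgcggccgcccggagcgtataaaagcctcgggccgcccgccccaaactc
TFPI2: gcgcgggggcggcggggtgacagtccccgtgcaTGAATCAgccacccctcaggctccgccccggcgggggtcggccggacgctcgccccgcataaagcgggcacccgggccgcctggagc
F3: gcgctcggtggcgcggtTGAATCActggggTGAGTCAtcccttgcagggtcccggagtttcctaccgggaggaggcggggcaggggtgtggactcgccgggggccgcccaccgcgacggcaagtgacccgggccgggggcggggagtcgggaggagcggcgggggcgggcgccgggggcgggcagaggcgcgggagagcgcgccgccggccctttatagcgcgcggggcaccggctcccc
The stretch of CCN2 holds 3 copies of its element and that of F3 holds 2. On both strands, TGANTCA was present in 11.1% (30 of 271) of the promoters of genes called at least 4-fold higher in MUM2B, in 3.41% of those at least 4-fold higher in OCM1, in 4.55% of those tested and in 7.76% of all promoters of the table. GGAATG was present in 15.9%, 11%, 10.8% and 14% of the same sets. Over all genes called higher in MUM2B, whatever the size, TGANTCA was in 6.84% (73 of 1067) and GGAATG in 13.59%. Both of these shares lay below those of the whole table. For all genes called higher in OCM1 the shares were 3.435% and 10.11%. The NF-kB element GGGACTTTC was present in 0.358% of the promoters tested, 0.379% of the OCM1 set and none of the MUM2B set.

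Of cytokines and chemokines the array held 29, and the 14 that passed the brightness filter were mostly higher in MUM2B. With all arrays 9 (64.3%) were called in MUM2B against 1 in OCM1, with a median of -1.60, and 9 against 3 without OCM1 replicate 1. Members dim in OCM1, such as IL1A, were tested through the 3 MUM2B arrays where they are high, so these shares depend on the filter. IL1A, an inflammatory cytokine, read 12.61, 11.38 and 11.60 in MUM2B and 6.11, 6.12 and 6.2 in OCM1 (-5.72 ± 0.27, 52.7-fold, adjusted p = 0.000506). IL1B, its relative, read 13.53, 10.97 and 11.64 against 7.09, 7.14 and 7.11 (-4.93 ± 0.51, adjusted p = 0.00366). Both were even and dim across the OCM1 arrays and highest on MUM2B replicate 1, and differed by -5.33 ± 0.11 and -4.18 ± 0.18 without OCM1 replicate 1. CXCL1 and CXCL8, chemokines that draw neutrophils, differed by -4.57 ± 0.23 and -3.82 ± 0.19, and LIF, a cytokine of the interleukin 6 family, by -3.06 ± 0.21. Of components and targets of NF-kB, 5 of 19 (26.3%) were higher in MUM2B and 2 (10.5%) in OCM1 with all arrays, against 11.4% and 15.3% of all genes, and 9 and 8 without OCM1 replicate 1. CASP4, an inflammatory caspase, was higher in MUM2B (-4.28 ± 0.54), and so was the death receptor TNFRSF10A (-2.96 ± 0.16). Interferon-stimulated genes were called in both directions, 4 of 30 (13.3%) in OCM1 and 5 (16.7%) in MUM2B, against 15.3% and 11.4% of all genes. Among them were BST2 (2.56 ± 0.11) and HERC5 (2.94 ± 0.26) in OCM1 and IFITM2 (-2.92 ± 0.16) in MUM2B. The counts were 14 in OCM1 and 9 in MUM2B without OCM1 replicate 1, against 34.6% and 30.2% of all genes. Their median was -1.42 in replicate 1 and 0.15 without OCM1 replicate 1.

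With all 6 arrays, no antigen presentation gene was called higher in MUM2B, where 11.4% of all genes were, against 15.3% in OCM1. For class II, 3 of 8 (37.5%) were higher in OCM1: HLA-DMB and HLA-DMA, which load peptides, by 2.30 ± 0.38 and 2.30 ± 0.52, and HLA-DPA1 by 1.27 ± 0.27. Of these 8 genes, 4 were higher in OCM1 without OCM1 replicate 1 and none in MUM2B. For class I, 2 of 18 (11.1%) were higher in OCM1, a share below that of all genes, and 1 of them was HLA-F (3.67 ± 0.58). The median of class I was -0.08 with all arrays and -1.03 in replicate 1. Leaving out OCM1 replicate 1, 11 were higher in OCM1 and 2 in MUM2B, against 34.6% and 30.2% of all genes. HLA probe sets can cross-hybridise between related genes. The calls of HLA-DMB and HLA-DMA were lost without MUM2B replicate 2 or 3 (adjusted p up to 0.0849 and 0.137), and those of HLA-DPA1 and HLA-F without any 1 of the 4 arrays of replicates 2 and 3 (0.112 and 0.0775). With the block, the adjusted p was 0.0518 for HLA-DMB, 0.0894 for HLA-DMA and 0.0791 for HLA-DPA1.

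Keratins and other epithelial genes were higher in MUM2B in 8 of 21 cases (38.1%) and in OCM1 in none, with a median of -1.09, and in 15 without OCM1 replicate 1. KRT7, a keratin of simple epithelia, read 12.47, 13.60 and 13.59 in MUM2B and 6.78, 6.19 and 6.18 in OCM1 (-6.84 ± 0.37, 114-fold, adjusted p = 0.000664). KRT8 read 11.53, 12.96 and 12.89 against 7.24, 6.29 and 6.61 (-5.75 ± 0.48, adjusted p = 0.00193), and its partner KRT18 differed by -3.23 ± 0.10. KRT7 differed by -7.41 ± 0.10 and KRT8 by -6.47 ± 0.12 without OCM1 replicate 1. The summed signal of the 5 epithelial markers was 1467 to 1795 in OCM1 and 14680 to 23180 in MUM2B, while its defining members EPCAM, CDH1 and GRHL2 were at most 84.3 in both lines.

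Of genes named for blood vessels and vasculogenic mimicry the array held 23, and 15 passed the brightness filter. Of these 15, 10 (66.7%) were higher in MUM2B and none in OCM1, with a median of -2.51. The same number passed without OCM1 replicate 1, where 1 was higher in OCM1. Members dim in OCM1, such as CDH5, were tested through the 3 MUM2B arrays where they are high, so these shares depend on the filter. CDH5, VE-cadherin, read 11.68, 11.24 and 11.55 in MUM2B and 6.57, 6.30 and 6.73 in OCM1 (-4.95 ± 0.18, 31-fold, adjusted p = 0.000262). ROBO4, a guidance receptor of endothelium, read 11.70, 10.85 and 10.92 against 6.98, 5.86 and 6.2 (-4.81 ± 0.14, adjusted p = 0.000166). ESM1, an endothelial proteoglycan, read 13.68, 13.76 and 13.69 against 7.03, 6.79 and 6.53 (-6.93 ± 0.15, 122-fold). All 3 were high on every MUM2B array and under a signal of 100 in OCM1, and differed by -4.88 ± 0.15, -4.86 ± 0.12 and -7.06 ± 0.11 without OCM1 replicate 1. ECSCR, a surface protein of endothelium, differed by -6.06 ± 0.12, ENG, endoglin, by -2.75 ± 0.13 and SOX17, an arterial factor, by -2.51 ± 0.16. The endothelial marker list (PECAM1, CDH5, VWF and KDR) summed to 394 to 527 in OCM1 and 2763 to 4193 in MUM2B. CDH5 made up most of this, and VWF and KDR lay at 102 to 226 in both lines. PECAM1 passed 100 on 1 array of each line, at 133 in OCM1 and at 579 in MUM2B. In bulk RNA, a few cells of another type and a low level in all cells cannot be told apart.

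**Figure D3:**
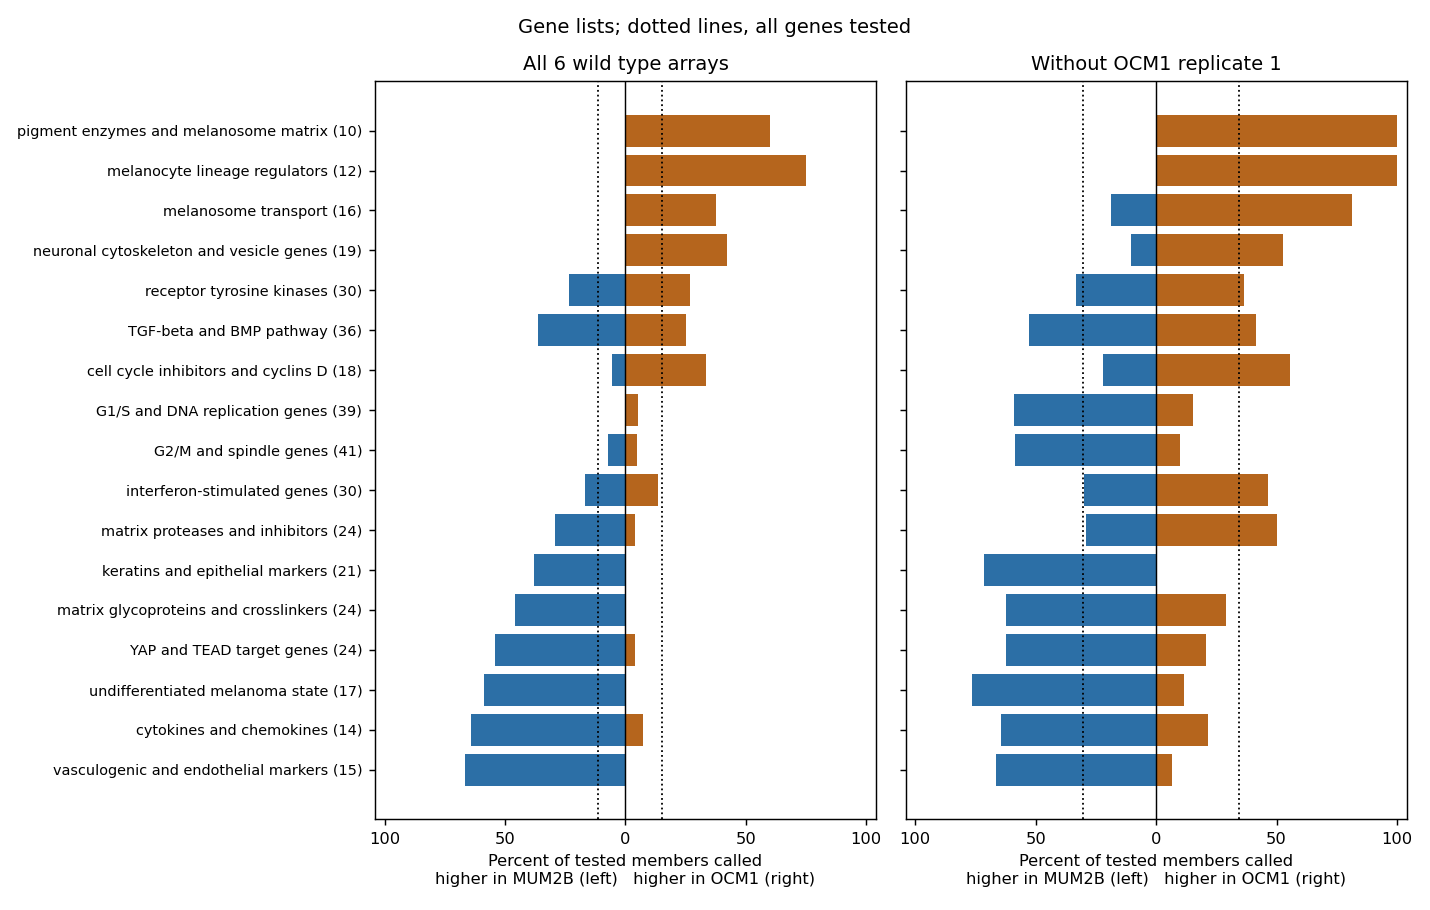
Percent of the tested members of each gene list called higher in OCM1 or in MUM2B (x axis), with all 6 arrays and without OCM1 replicate 1, and dotted lines at the percent for all genes tested. Melanocyte lineage regulators (75.0%) and pigment genes (60.0%) stand at one end and vasculogenic genes (66.7%) and cytokines (64.3%) at the other, beside 15.3% and 11.4% for all genes with 6 arrays.

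Members of the TGF-beta and BMP pathway were called in both directions, 9 of 36 (25%) in OCM1 and 13 (36.1%) in MUM2B, and 15 and 19 without OCM1 replicate 1. INHBA, the activin A subunit, read 12.69, 12.18 and 12.21 in MUM2B and 7.35, 6.95 and 6.55 in OCM1 (-5.41 ± 0.15, 42.4-fold, adjusted p = 0.000159). SMAD3, which carries the TGF-beta signal, differed by -3.65 ± 0.28, the receptor TGFBR2 by -3.08 ± 0.14 and the ligand BMP2 by -2.79 ± 0.14. BAMBI, a decoy receptor that dampens the pathway, was higher in OCM1 at 10.38, 13.21 and 13.15 against 8.20, 7.32 and 7.55 (4.56 ± 0.76, adjusted p = 0.0136). INHBA differed by -5.45 ± 0.13 and BAMBI by 5.74 ± 0.11 without OCM1 replicate 1. The inhibitors of differentiation split, with ID1 at -2.60 ± 0.10 and ID2 and ID4 at 3.65 ± 0.73 and 5.30 ± 0.26. The call of BAMBI was lost without any 1 of the 4 arrays of replicates 2 and 3 (adjusted p up to 0.0847) and that of ID2 without MUM2B replicate 2 or 3 (0.0882), and with the block they had adjusted p-values of 0.0503 and 0.0715.

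Wnt antagonists were among the genes higher in MUM2B: DKK1 by -4.72 ± 0.45, DKK3 by -3.37 ± 0.12 and SFRP1 by -4.39 ± 0.29, as was the ligand WNT5B (-3.79 ± 0.11). Over the 28 Wnt genes tested, 6 (21.4%) were higher in MUM2B and 4 (14.3%) in OCM1, against 11.4% and 15.3% of all genes. Without OCM1 replicate 1 the counts were 9 and 10, near the 30.2% and 34.6% of all genes. Of the insulin-like growth factor axis, 6 of 18 (33.3%) were higher in MUM2B and 3 (16.7%) in OCM1, and 8 and 7 without OCM1 replicate 1. IGFBP4 and IGFBP6, secreted binding proteins, were higher in MUM2B (-4.31 ± 0.39 and -4.12 ± 0.36), and IGF2BP1, an oncofetal RNA-binding protein, in OCM1 (3.57 ± 0.27). HOX genes were called in both directions: HOXB2 and HOXB4 were higher in MUM2B (-4.06 ± 0.84 and -1.81 ± 0.14) and HOXC4 in OCM1 (2.76 ± 0.23), with 5 of 20 called in each direction, and without OCM1 replicate 1, 6 in OCM1 and 10 in MUM2B. The call of HOXB2 was lost without any 1 of the 4 arrays of replicates 2 and 3 (adjusted p up to 0.119) and with the block (0.0759). Of 22 detoxification genes, 8 were higher in MUM2B and 5 in OCM1, and 11 and 5 without that array. AKR1C2, an aldo-keto reductase, was higher in MUM2B (-3.74 ± 0.50) and GSTM3, a glutathione transferase, in OCM1 (4.66 ± 0.15). AKR1C probe sets can cross-hybridise between close paralogs.

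Factors of epithelial-mesenchymal transition did not go one way. SNAI2 was higher in OCM1, at 11.31, 11.63 and 11.86 against 9.95, 10.71 and 10.50 (1.21 ± 0.14, adjusted p = 0.00466). ZEB1 and TWIST2 were higher in MUM2B, by -1.92 ± 0.13 and -3.62 ± 0.43. All 3 kept their direction without OCM1 replicate 1, at 1.14, -2.04 and -4.28. Of the list, 1 of 12 was higher in OCM1 and 4 in MUM2B, and 3 and 6 without that array. Of 16 genes used to class uveal melanomas or mutated in them, 5 were higher in OCM1 and 2 in MUM2B, and 9 and 4 without OCM1 replicate 1. ROBO1, an axon guidance receptor of that class list, was higher in OCM1 by 1.69 ± 0.10 and MTUS1 by 3.14 ± 0.42. GNAQ and PLCB4, of the G protein pathway activated in uveal melanoma, were higher in MUM2B by -0.73 ± 0.13 and -0.99 ± 0.15. The calls of GNAQ and PLCB4 were lost without any 1 of the 4 arrays of replicates 2 and 3 (adjusted p up to 0.0953 and 0.0711) and that of MTUS1 without MUM2B replicate 3 (0.058). With the block the adjusted p of GNAQ was 0.0651. Of cancer-testis genes 4 were bright enough to test, and PAGE5 joined PRAME with a difference of 4.47 ± 0.98 (adjusted p = 0.0289). That call was lost without MUM2B replicate 2 or 3 (0.132) and with the block (0.0843), and 3 of its 5 probe sets went that way.

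Genes of the cell cycle disagreed between the sets. Of 39 genes of G1/S and DNA replication, 2 were higher in OCM1 with all arrays and none in MUM2B, with a median of 0.41. Without OCM1 replicate 1, 23 were higher in MUM2B and 6 in OCM1, with a median of -0.29, and in replicate 1 the median was 1.89. PCNA, the sliding clamp of DNA replication, read 13.56, 12.48 and 12.32 in OCM1 and 11.55, 13.14 and 13.07 in MUM2B. GINS2, of the replicative helicase, read 10.63, 9.57 and 9.64 against 6.79, 10.30 and 10.23. The order of the lines in both genes was opposite in the 2 sets, through the high OCM1 and the low MUM2B value of replicate 1. PCNA differed by 0.20 ± 0.58 (adjusted p = 0.838) and GINS2 by 0.84 ± 0.95 (adjusted p = 0.573) with all arrays. PCNA and GINS2 differed by -0.71 ± 0.10 and -0.66 ± 0.10 without OCM1 replicate 1. Leaving out MUM2B replicate 1 gives the same differences by construction, because either fit then rests on replicates 2 and 3. Of the G2/M and spindle list, 3 of 41 were higher in MUM2B and 2 in OCM1 with all arrays. Without OCM1 replicate 1, 24 were higher in MUM2B and 4 in OCM1, with a median of -0.30. On the CANT1 arrays the counts were 29 in MUM2B and 1 in OCM1, beside 3163 and 3842 of all 11921 genes. CDC20, which activates the anaphase complex, differed by -1.22 ± 0.15 (adjusted p = 0.00628). The call of CDC20 was lost without MUM2B replicate 3, OCM1 replicate 2 or OCM1 replicate 3 (adjusted p up to 0.0545). Cytosolic ribosomal protein genes were level, with 0 of 63 called higher in OCM1 and 1 in MUM2B by limma, and 2 and 15 without OCM1 replicate 1.

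Some of the widest differences of replicates 2 and 3 had the opposite sign in replicate 1. Of the genes called without OCM1 replicate 1, replicate 1 had the same sign for 2806 (68.1%) of those higher in OCM1 and 2123 (59.0%) of those higher in MUM2B. It went the other way by at least 1 unit for 218 and 308. SYTL2, a RAB27 effector in vesicle transport, read 14.37, 6.05 and 6.32 in OCM1 and 10.79, 9.89 and 10.06 in MUM2B. HS6ST2, a heparan sulfate sulfotransferase, read 11.88, 6.0 and 6.02 against 10.84, 11.15 and 11.13. PYGL, liver glycogen phosphorylase, read 12.62, 5.61 and 5.94 against 10.68, 10.21 and 10.31. In all 3 genes OCM1 replicate 1 was the brightest of the 6 arrays and the other OCM1 arrays were under a signal of 100. Without it the differences were -3.79 ± 0.12, -5.14 ± 0.10 and -4.49 ± 0.12, and with all arrays the adjusted p was 0.585, 0.15 and 0.271. EMC10, ZDHHC4 and NMU also had OCM1 replicate 1 far above its companions and differed by -5.05 ± 0.10, -3.66 ± 0.13 and -3.32 ± 0.16 without that array.

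In the other direction, S100A4, a calcium-binding protein linked to motility, read 8.23, 13.13 and 13 in OCM1 and 11.28, 9.44 and 9.89 in MUM2B. ITGB3, an integrin chain, read 6.55, 11.25 and 11.23 against 7.90, 7.42 and 8.21. TXNIP, an inhibitor of thioredoxin, read 10.35, 11.63 and 12.25 against 12.96, 7.14 and 7.61. S100A4 and ITGB3 turned on the low OCM1 replicate 1 value, whereas for TXNIP it was MUM2B replicate 1 that lay over 5 units above its companions. These genes differed, without OCM1 replicate 1, by 3.40 ± 0.14, 3.43 ± 0.20 and 4.56 ± 0.20, and with all arrays their adjusted p-values were 0.559, 0.256 and 0.358. IGFBP7, CRYBG1 and WIPI1 differed by 4.08 ± 0.16, 3.69 ± 0.15 and 3.29 ± 0.15 without that array and were likewise not called with all 6.

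Neighbouring genes differed together over parts of several chromosomes. In running medians over 31 neighbouring tested genes (10869 windows, X and Y left out), the highest window ran from FAM3C to KLHDC10 on chromosome 7, with a median of 1.34 with all arrays and 1.35 without OCM1 replicate 1. In that window 28 of 31 genes were above 0, and the median was 0.90 in replicate 1 and 1.14 on the CANT1 arrays. Further windows on chromosome 7 (SLC26A5 to MDFIC) and on chromosome 18 (WDR7 to PTGR3) had medians of 1.16 and 0.91 with all arrays, and of 0.87 and 0.20 in replicate 1. On chromosome 19, the window from CHERP to CCDC124 was 0.76 with all arrays and 0.02 in replicate 1. Windows higher in MUM2B lay on chromosome 8 (KLF10 to TAF2, -0.97, and PDE7A to IL7, -0.73), chromosome 9 (CDC14B to ABCA1, -0.78) and chromosome 16 (CTCF to CYB5B, -0.56). In replicate 1 the medians of these 4 windows were -0.48, -0.44, -0.15 and -0.02, so that those of chromosomes 9 and 16 lay near 0 in that set. The middle 90% of all windows lay between -0.37 and 0.55 with all arrays, and between -0.48 and 0.56 without OCM1 replicate 1. The windows named were picked by their median without that array. By chromosome, 32% of 544 genes on chromosome 7 and 30.4% of 168 on chromosome 18 were called higher in OCM1, against 15.3% of all genes. Higher in MUM2B were 23.8% of 441 genes on chromosome 8 and 19.8% of 481 on chromosome 9, against 11.4%.

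**Figure D4:**
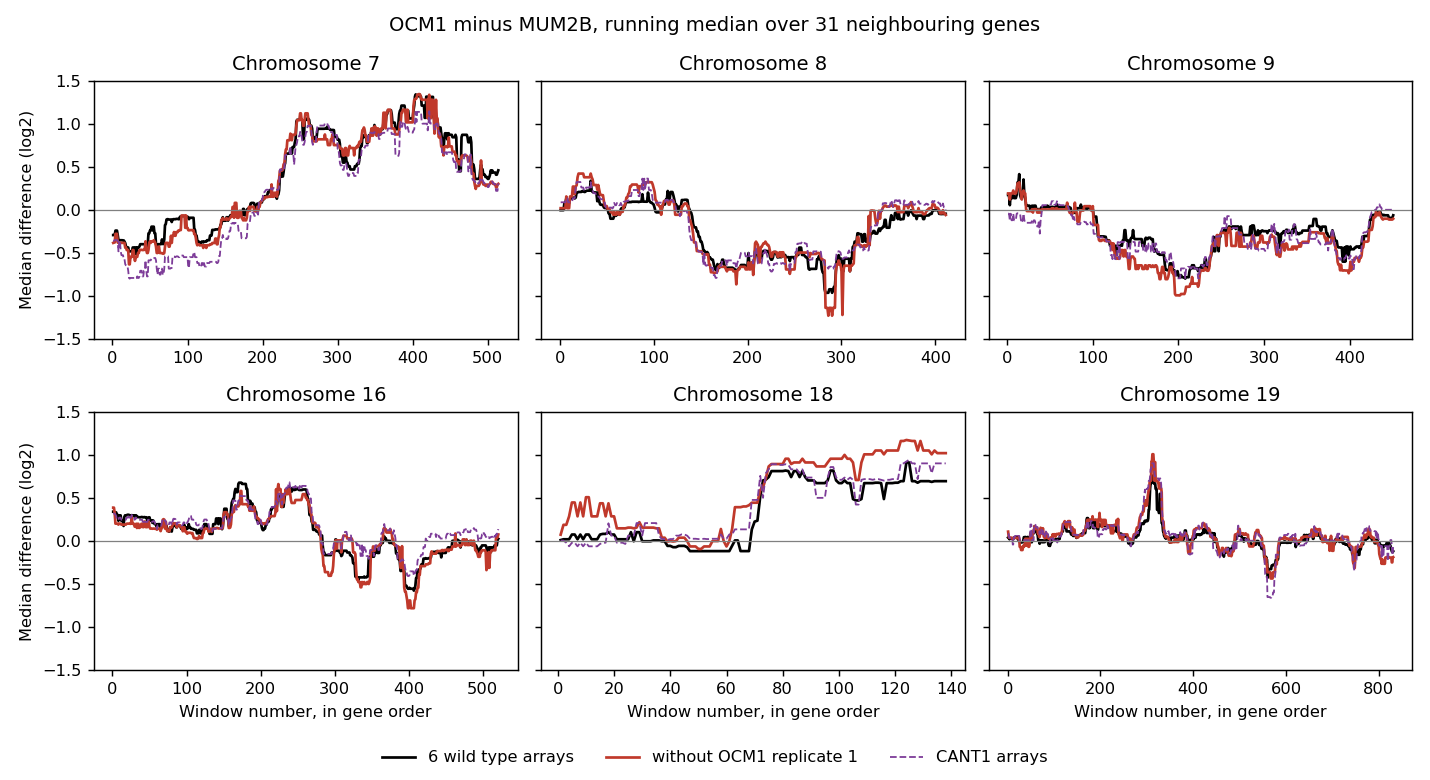
Running median over 31 neighbouring genes of the OCM1 minus MUM2B difference (log2, y axis) along the order of tested genes (x axis) on 6 chromosomes, with all 6 wild type arrays in black, without OCM1 replicate 1 in red and on the CANT1 arrays as a purple dashed line. The lines rise above 1 on chromosome 7. On chromosome 8 the wild type lines fall to about -1, and in their lowest window (KLF10 to TAF2) the CANT1 line lies at -0.69.

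The line difference was also measured on the 6 CANT1 arrays, which share no array with the wild type comparison but come from the same lines. There, 3993 of 12072 genes (33.1%) were higher in OCM1 and 3183 (26.4%) in MUM2B. Of the wild type calls, 1802 (99.0%) of the 1821 genes higher in OCM1 and 1341 (98.7%) of the 1358 higher in MUM2B had the same sign on the CANT1 arrays, and 1707 (93.7%) and 1277 (94.0%) were called there in the same direction. The opposite call was found for 1 gene in each direction. PMEL differed by 7.27 ± 0.09 there, MITF by 4.88 ± 0.12, SOX10 by 3.63 ± 0.29 and GPNMB by 2.85 ± 0.10, so SOX10 and GPNMB, which missed the threshold with all wild type arrays, passed it on the CANT1 arrays. AXL differed by -6.50 ± 0.13, TGM2 by -7.98 ± 0.14 and CDH5 by -5.08 ± 0.19. PCNA and GINS2 were not called there, at -0.24 ± 0.15 and 0.30 ± 0.21. SYTL2, opposite in the wild type sets, differed by -0.04 ± 0.64. Across genes, the differences of replicate 1 and of replicates 2 and 3 correlated at 0.933 on the CANT1 arrays, against 0.533 on the wild type arrays.

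The test of whether the line difference itself differed between CANT1 and wild type cells, over all 12 arrays, called 6 of 12715 genes (0.0472%) with limma. At an unadjusted p under 0.05 there were 633 of the 12715, about the share that this threshold passes where no gene differs. That share holds only for the fit of all 12 arrays with equal weight. With replicates 2 and 3 only, the same test called 1384 genes with a positive and 1286 with a negative change. With array weights it called 1483 and 1303. In SFRP1, a secreted Wnt antagonist, wild type OCM1 read 6.59, 8.69 and 8.82 and CANT1 OCM1 11.02, 11.87 and 11.98, while MUM2B read 11.85, 12.72 and 12.70 as wild type and 12.30, 12.70 and 12.67 with CANT1. The line difference was thus smaller in size in CANT1 cells, with a change (CANT1 minus wild type) of 3.46 ± 0.42 (adjusted p = 0.0288). APOC2, an activator of lipoprotein lipase, read 7.55, 7.01 and 6.97 in wild type OCM1 and 10.34, 11.08 and 11.01 in CANT1 OCM1, and all 6 MUM2B arrays lay at 6.53 to 6.85 (3.54 ± 0.31, adjusted p = 0.00521). FSTL5, a follistatin-like protein, read 5.72, 5.85 and 5.65 in wild type OCM1 and 7.91, 7.55 and 7.85 in CANT1 OCM1 (2.01 ± 0.17, adjusted p = 0.00521). In all 6 genes called, the OCM1 arrays of the 2 states did not overlap. These genes were picked by the test on the same arrays, so this adds no separate support. HSBP1L1, NEFL and AMPH changed by 2.26 ± 0.26, 1.80 ± 0.22 and -1.56 ± 0.16, with adjusted p-values of 0.0261, 0.0288 and 0.0135. FSTL5 passed the brightness filter through the 3 CANT1 OCM1 arrays, where it is high, so it was not tested with any of these left out. With 1 of the 12 arrays left out in turn, APOC2 lost its call without OCM1 CANT1 replicate 2 or 3 (adjusted p = 0.0504 and 0.0615). AMPH lost its call with 7 of the 12 arrays left out, HSBP1L1 with 8 and NEFL and SFRP1 with 9 each, with adjusted p-values up to 0.1, 0.146, 0.186 and 0.186. None of these losses came from leaving out OCM1 wild type replicate 1. Leaving it out gave 34 genes with a positive change (CANT1 minus wild type) and 6 with a negative one, in place of 5 and 1. The sign does not give the size of a line difference, which was smaller in CANT1 cells for SFRP1 and HSBP1L1 although both changes were positive.

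**Figure D5:**
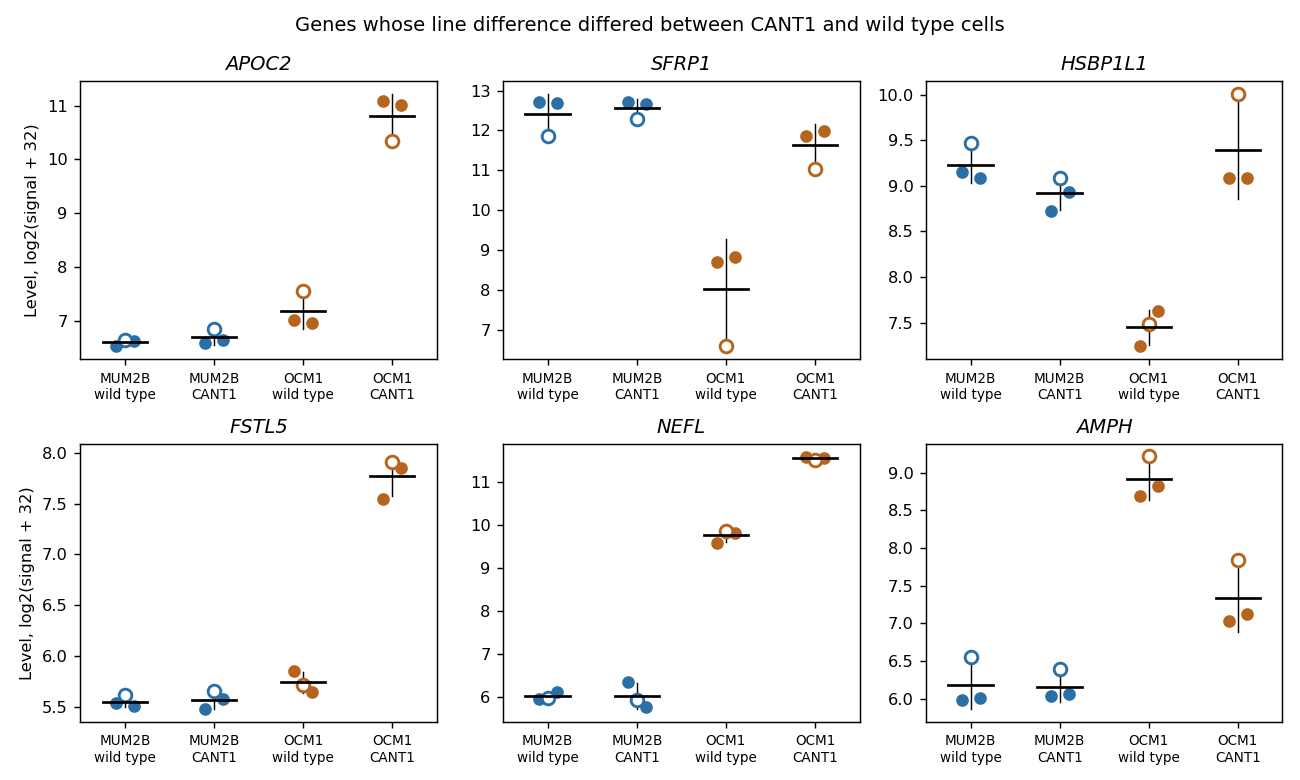
Levels (log2 of signal + 32, y axis) of the 6 genes whose line difference differed between CANT1 and wild type cells, on all 12 arrays, with the mean of each group as a bar and ± 1 SD as a line. In SFRP1, APOC2 and FSTL5 the CANT1 OCM1 arrays lie above the wild type OCM1 arrays, and the MUM2B arrays of both states lie together.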

How the data were processed

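Expression was measured on Affymetrix PrimeView arrays of 12 samples, 6 of them wild type. The authors deposited log2 values, made with MAS5 per the submitters' processing notes; no normalization version is given in the sources used here. Deposited medians differed between labelled sets (6.85 to 6.88 for replicate 1, 6.38 to 6.45 otherwise), so signals were returned to the linear scale, scaled to a trimmed mean of 500 (2% trimmed), and taken as log2(signal + 32). Of 49395 probe sets, 44988 had 1 gene symbol, 1832 several and 2473 none, besides 102 controls. The brightest probe set stood for each of 18132 genes, and the 11921 genes that reached a signal of 100 on 3 or more arrays were tested with limma 3.58.1 in R 4.3.3, cell line plus set, Benjamini-Hochberg at 0.05. The fit of the 6 arrays had 3 residual degrees of freedom. Values without OCM1 replicate 1 use the genes of the 6-array fit. This was added after seeing the data, because the filter on 5 arrays drops genes bright in OCM1 alone, and QPCT, PRAME, EPHA3, CDKN2A, CRNDE, ID4, NRN1, CHL1, EPB41L3 and HMCN1 enter the named genes through it. Of 1821 and 1358 calls, 1562 and 1356 were tested under that filter and all were called. Same-numbered wild type arrays deviated together (r = 0.215, 0.204 and 0.192), but 2 crossed pairs of replicates 2 and 3 gave 0.182 and 0.204. Pairing by number therefore cannot be told apart from the labelled set, and the replicate block is given as an alternative. Named genes are the 15 most different in each direction called in both fits, up to 5 called members of each list by size, every pigment and lineage member, the 6 most different in each direction whose replicate 1 sign was opposite, and the genes of the interaction test. The members and lists were chosen with earlier results of these data known. The scripts were tested on simulated data.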

Additional observations from a re-analysis of the deposited data

Results flagged for a closer look

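6 genes had a line difference that differed between CANT1 and wild type cells by the tested interaction term (limma over 12 arrays, adjusted p at most 0.0288). The change in the OCM1 minus MUM2B difference, CANT1 minus wild type, was 3.54 for APOC2, 3.46 for SFRP1, 2.26 for HSBP1L1, 2.01 for FSTL5, 1.80 for NEFL and -1.56 for AMPH. APOC2, FSTL5 and NEFL were higher in CANT1 than in wild type OCM1 and under a signal of 100 in MUM2B of both states. NEFL read 9.86, 9.59 and 9.83 in wild type OCM1 and 11.51, 11.59 and 11.56 in CANT1 OCM1. AMPH, a protein of synaptic vesicle recycling, read 9.22, 8.69 and 8.83 in wild type OCM1 and 7.84, 7.03 and 7.12 in CANT1 OCM1. HSBP1L1 was higher in wild type MUM2B (9.47, 9.15 and 9.08) than in wild type OCM1 (7.48, 7.24 and 7.62), while CANT1 OCM1 read 10.01, 9.08 and 9.09. HSBP1L1, NEFL and SFRP1 lost their call with the replicate block (adjusted p = 0.074, 0.101 and 0.101).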

How the results depend on the processing

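The precision is limited by 3 arrays a line and 3 residual degrees of freedom, and dim genes by the offset. Counts are given as higher in OCM1, then in MUM2B. From 1821 and 1358 with 6 arrays, they moved to 861 and 665 with no set term, 824 and 690 with the replicate block, 3643 and 3084 with replicates 2 and 3 only, 4293 and 3652 with array weights, 3511 and 3430 over all probe sets, 993 and 798 at 2-fold, and 402 to 4090 and 340 to 3562 with 1 array left out. Without OCM1 replicate 1 (3838 and 3562) they were 1743 and 1789 with no set term, 8323 and 8738 over all probe sets, 2036 and 1833 over the genes of the 6-array fit with no set term, and 1258 and 1256 at 2-fold. On the CANT1 arrays (3993 and 3183) the count in MUM2B was 2054 when fitted with all 12 arrays, 8334 and 7776 were called over all probe sets and 1473 and 1192 at 2-fold. For the interaction (5 positive, 1 negative) the positive count was 3 with quantile normalization, with the deposited values, with an offset of 8 and with no set term (0 negative), 2 with the replicate block and 10 over all probe sets, and 1384 and 1286 were called with replicates 2 and 3 only and 1483 and 1303 with array weights. With 1 array left out it was 0 to 34 and 0 to 6. The other alternatives stayed within 1.5 times of these counts. With replicates 2 and 3 only or without either replicate 1 array, which give the same difference, PCNA reversed to -0.71 and GINS2 to -0.66. With array weights PCNA and GINS2 reversed to -0.63 and -0.59. With 1 array left out they reached up to 0.51 and 1.29. The cause of these changes was not tested. None of the 143 called genes named from the 6-array fit reversed in any of its alternatives, 26 lost their call with the replicate block, and 102 kept it whichever array was left out.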
